A study of Rattus norvegicus with 6 samples.

Results

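The genes described here are the Wnt ligands, their receptors and co-receptors, secreted inhibitors, intracellular transducers, transcription factors and feedback targets in H9c2 cells after knockdown of the long non-coding RNA Tug1. They were found in the deposited count table by symbol: names of the form Wnt, Fzd, Sfrp and Dkk followed by a number, and 21 further symbols from Lrp5 to Znrf3. This gave 58 genes of 40456 in the table. H9c2 is a clonal line of rat cardiomyoblasts, labelled as wild type and as a cardiomyocyte cell type. All 6 libraries came from cells kept for 5 days in medium with 1% serum and 1 µM retinoic acid and transfected for 24 h with 25 nM of a gapmer, an antisense oligonucleotide that lets RNase H cut the RNA it pairs with. A negative control gapmer was used in 3 libraries and a gapmer against Tug1 in the other 3.

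Each group received a single oligonucleotide, so loss of Tug1 and any other action of that oligonucleotide cannot be told apart. Both are printed in capitals, 5′ to 3′, because they are the only recorded difference in treatment between the groups.

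Tug1 gapmer: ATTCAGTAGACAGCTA

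negative control gapmer: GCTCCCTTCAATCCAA

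Tug1 itself was at 54.6, 51.9 and 55.3 CPM (counts scaled to library size and composition) in the control libraries and at 11.9, 11.2 and 12.4 CPM in the knockdown libraries. Its log2 fold change of knockdown over control was -2.19 (edgeR adjusted p 4.39e-16, SE 0.0786), and no knockdown library reached the lowest control, as the labels have it. Total counts per library ran from 12978548 to 13544337, so that 3 counts, taken as the detection floor, equalled 0.217 to 0.232 CPM. Of 10 cardiac muscle markers, 5 had at most 3 counts in any library, among them Myh6, Myh7 and Nkx2-5, while Tnnt2 was abundant; 9 of 10 skeletal muscle markers passed the filter on low counts. The summed level of the skeletal markers was 915 to 923 CPM in controls and 1340 to 1421 CPM in knockdown libraries, with 7 higher and 1 lower; that of the cardiac markers was 336 to 371 and 392 to 440 CPM. Tnnt2 made up most of the cardiac sum, with a mean of 348 CPM in controls and 410 CPM in knockdown libraries. A list of 7 fibroblast genes summed to 28840 to 29750 and 27370 to 29380 CPM, with 2 higher and 3 lower. Most of the fibroblast sum was Col1a1, which fell (-0.23, SE 0.0447), and Col3a1, which rose (0.47, SE 0.04). An endothelial list of 6 genes summed to 3.01 to 4.62 CPM in controls and lay within that range in knockdown libraries, with none called. A leukocyte list of 6 genes summed to 3.22 to 5.41 CPM in controls and 6.73 to 9.01 CPM in knockdown libraries; only Cd68, a lysosomal protein of macrophages, was tested, and it rose (1.09, edgeR adjusted p 2.41e-05), while Ptprc and Adgre1 had no count in any library. The libraries are bulk RNA, in which fewer cells of a type and less RNA per cell cannot be told apart, and the part of these marker shifts in the results below was not tested. Nothing in the labels says that the replicates came from separate cultures, so p-values measure the spread between these libraries, which may be technical.

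Wnt proteins are secreted lipid-modified ligands that bind Frizzled receptors. With the co-receptors Lrp5 or Lrp6 they recruit Dishevelled and Axin to the membrane, which stops Gsk3b, Axin and Apc from marking beta-catenin for destruction. Beta-catenin then enters the nucleus and works with factors of the Tcf and Lef family, and several of its targets, such as Axin2, Znrf3 and Rnf43, damp the signal again. Other Wnt ligands act through Ror and Ryk receptors without beta-catenin. In muscle precursors and the developing heart, the pathway is known for its part in commitment and differentiation.

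Of the 58 genes, 35 passed the filter (about 10 counts in at least 3 libraries) and were tested. The test was edgeR's quasi-likelihood fit on the whole table, with p-values adjusted over 14216 genes. At an adjusted p under 0.05, 29 of the 35 were called changed, 15 higher and 14 lower after knockdown. That is 82.9%, against a background of 61.7% of all tested genes, with 30.8% of all tested genes called higher and 30.9% lower. A change of at least 0.5 on the log2 scale was reached by 17 of the 35 with a call, against 31% of tested genes, and a change of at least 1 by 4, against 9.8%. The median absolute log2 fold change was 0.47 in these genes and 0.34 over all tested genes, while the signed median was -0.06 against 0.00. The 3 knockdown values lay clear of the 3 control values in 30 of the 35 genes, against 65.6% of tested genes: 15 lay above (background 33%) and 15 below (32.6%). No test of the group as a whole was made. Of the 35, 33 met the filter level in all 6 libraries, and of these 28 were called, 15 higher and 13 lower. Wnt11 met it in 4 libraries, all 3 controls and 1 knockdown library, and Rnf43 in 5, all 3 knockdown libraries and 2 controls. Wnt11 thus passed through the group where it was high, and it is counted in the 17, the 4 and the 15 below. The other genes called with a change of at least 1 were Fzd3 (-1.17), Ryk (1.03) and Tcf7 (1.05).

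The 23 genes not tested had at most 15 counts in any library. Of these, 7 had no count in any library (Wnt2, Wnt8a, Wnt9b, Fzd10, Dkk2, Sfrp1 and Sfrp2), and another 9 never exceeded 3 counts. Wnt3a, the ligand most used to activate beta-catenin in culture, had 1 count over all 6 libraries, and the inhibitor Dkk1 had 2 counts. For a gene with no count, these depths allow up to 0.217 to 0.232 CPM per library, a limit that covers counting error only.

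**Figure D1:**
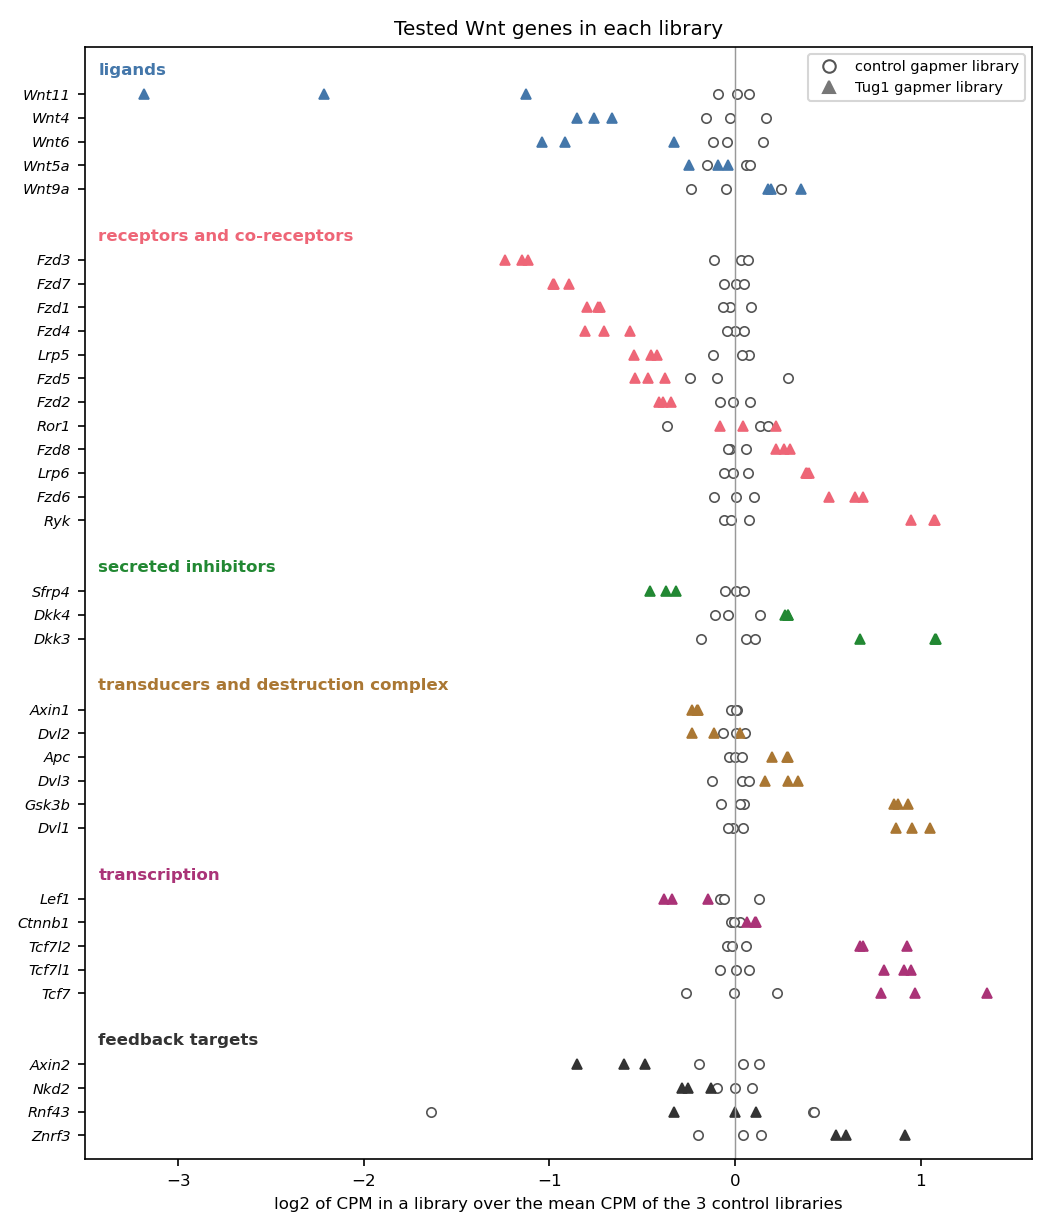
Each row is a tested Wnt gene, grouped by role, and each symbol is a library: open circles for the 3 control gapmer libraries and triangles for the 3 Tug1 gapmer libraries, as log2 of CPM over the control mean. Fzd3, Fzd7, Fzd1 and Fzd4 sit left of the controls and Ryk, Gsk3b, Dvl1 and the Tcf genes right of them, while Wnt5a, Ror1 and Rnf43 overlap the controls.

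Among the 19 ligand genes, 5 were tested: 3 fell, Wnt11 among them, 1 rose and Wnt5a was not called. This is 80% called, against 61.7% of all tested genes, of which 30.8% were called higher and 30.9% lower. Wnt4, a ligand known for its part in kidney and gonad development, was at 33.9, 38.9 and 31.0 CPM in control replicates 1 to 3 and at 20.4, 19.2 and 21.9 CPM in knockdown replicates 1 to 3. The groups did not overlap, and the log2 fold change was -0.76 (edgeR adjusted p 1.17e-07, SE 0.0884). Wnt11, which signals mainly without beta-catenin and is known from heart development, was a gene of few counts. It had 27, 28 and 25 counts in the controls and 13, 6 and 3 after knockdown, or 2.07, 2.16 and 1.93 CPM against 0.941, 0.443 and 0.226 CPM. The knockdown libraries were all below the controls but spread widely among themselves, and the last of them was at the detection floor. Its log2 fold change was -1.90 (SE 0.369), and with a library left out it ran from -2.58 to -1.55. Since its 3 control libraries brought it through the filter and only 1 knockdown library met that level, this drop is given as a description, although the gene is counted among the 29.

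Wnt6 was at 4.06, 4.64 and 3.85 CPM in controls and at 3.33, 2.22 and 2.04 CPM in knockdown libraries. All knockdown values were below all control values, with replicate 1 nearest to them, and the log2 fold change was -0.72 (edgeR adjusted p 0.00603, SE 0.216). Wnt9a, a ligand known from joint formation, was the single ligand called higher, at 20.2, 28.3 and 23.0 CPM in controls and 27.3, 30.5 and 26.9 CPM in knockdown libraries. Control replicate 2 lay within the knockdown range. Its log2 fold change of 0.24 (edgeR adjusted p 0.0353, SE 0.0984) lost its call without control replicate 1 (0.14), control replicate 3 (0.22) or knockdown replicate 2 (0.19). Wnt5a, the best known ligand of the branch without beta-catenin, was at 14.5 ± 1.24 CPM in controls and 13.3 ± 0.993 CPM in knockdown libraries (SD, n = 3), which gave a log2 fold change of -0.12 (SE 0.106) that did not pass. The ratio of Wnt4 to Wnt9a counts was 1.35 to 1.68 in controls and 0.630 to 0.812 with Tug1 knocked down. With no correction for transcript length, such a ratio compares libraries and does not say which gene had more transcripts.

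The Frizzled genes encode the seven-pass receptors that bind Wnt ligands. All 8 that were tested were called, 6 lower and 2 higher, and in each of the 8 the groups did not overlap; over all tested genes 61.7% were called and 65.6% did not overlap. Fzd7 was at 125, 129 and 120 CPM in controls and at 63.1, 63.4 and 67.0 CPM in knockdown libraries. The replicates of each group lay close together, and the log2 fold change was -0.95 (edgeR adjusted p 1.12e-12, SE 0.0544). Fzd3, known from axon guidance and planar polarity, fell further, from 29.2, 26.4 and 30.0 CPM to 12.9, 13.2 and 12.1 CPM. This was the largest drop among the receptors, with a log2 fold change of -1.17 (edgeR adjusted p 1.46e-10, SE 0.09).

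Fzd1, the closest relative of Fzd7 and Fzd2, was at 95.1, 103 and 92.7 CPM in controls and 55.8, 58.5 and 58.1 CPM in knockdown libraries, a log2 fold change of -0.75 (SE 0.0575). Fzd2 was at 164, 175 and 156 CPM in controls and 130, 126 and 124 CPM in knockdown libraries. Its log2 fold change of -0.38 (SE 0.0516) was the smallest of the 6 drops, and it moved to -0.17 with an offset for genomic span, a correction that removes from each library the trend of its deviations on the length of the gene in the genome. Fzd4, which binds Norrin as well as Wnt ligands and is known from blood vessel growth, went from 137, 133 and 141 CPM to 78.1, 83.8 and 92.4 CPM (-0.69, SE 0.0587). For all 3 genes, each knockdown library lay below every control. Fzd5 was at 10.6, 15.3 and 11.8 CPM in controls and 9.70, 9.08 and 8.67 CPM in knockdown libraries. Its log2 fold change of -0.46 (edgeR adjusted p 0.00463, SE 0.132) leaned on control replicate 2, without which it was -0.29 and not called.

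The rises were in Fzd6, a receptor known for restraining beta-catenin signalling and for planar polarity, and in Fzd8. Fzd6 was at 6.59, 7.65 and 7.16 CPM in controls and 10.1, 11.5 and 11.2 CPM in knockdown libraries. All knockdown values were higher, with a log2 fold change of 0.62 (edgeR adjusted p 0.000203, SE 0.126). Fzd8 went from 43.1 ± 1.56 to 51.7 ± 1.43 CPM (SD, n = 3), which gave a log2 fold change of 0.26 (SE 0.0624). Summed over the family, Frizzled genes took 604 to 630 CPM in controls and 413 to 424 CPM with Tug1 knocked down. The summed ligand genes took 76.5 to 88.9 CPM and 65.8 to 67.3 CPM.

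**Figure D2:**
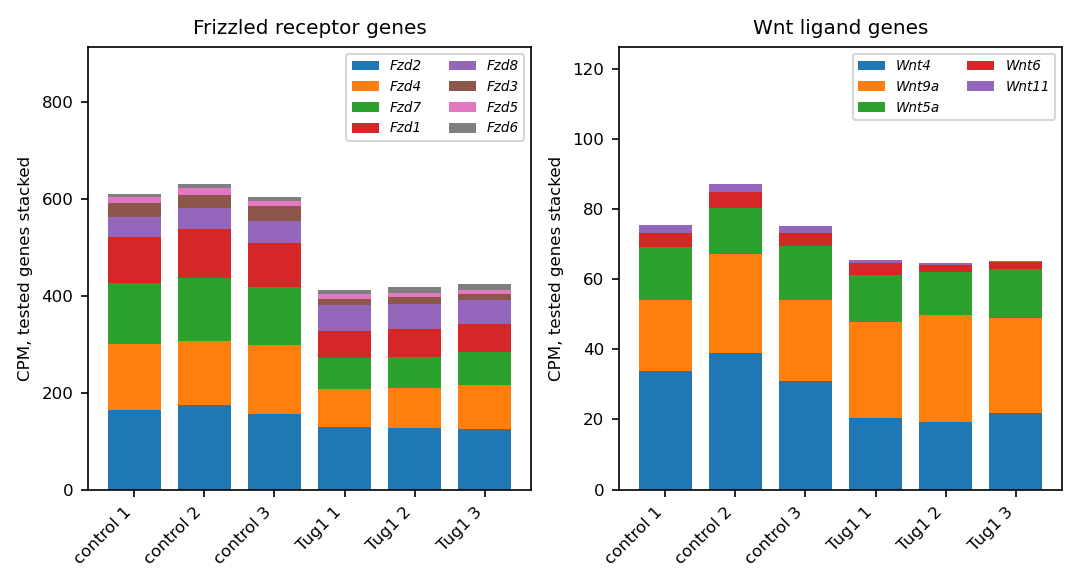
Stacked CPM of the tested Frizzled genes (left) and tested ligand genes (right) in each of the 6 libraries, on axes that start at 0. The Frizzled stacks are lower in all 3 knockdown libraries, mainly through Fzd7, Fzd4, Fzd1 and Fzd2, and in the ligand stacks the Wnt4 part shrinks while the Wnt9a part does not.

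The co-receptors Lrp5 and Lrp6, single-pass receptors needed for the beta-catenin branch, moved apart. Lrp6 was at 88.8, 92.0 and 97.2 CPM in controls and at 121, 121 and 122 CPM in knockdown libraries, a log2 fold change of 0.39 (edgeR adjusted p 9.19e-07, SE 0.0523). Lrp5 was at 46.0, 44.9 and 40.2 CPM in controls and 32.7, 30.0 and 31.9 CPM in knockdown libraries, a log2 fold change of -0.47 (edgeR adjusted p 5.96e-06, SE 0.0723). Neither gene's groups overlapped. The ratio of Lrp6 to Lrp5 counts was 1.93 to 2.42 in controls and 3.71 to 4.03 after knockdown. With the span offset Lrp6 was at 0.15 and Lrp5 at -0.67, each still called.

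Ryk, a receptor that binds Wnt ligands through an extracellular Wif-type domain and has an inactive kinase, showed the largest rise among the receptors. It was at 55.9, 50.8 and 52.3 CPM in controls and at 112, 102 and 112 CPM in knockdown libraries. Every knockdown library was far above every control, with a log2 fold change of 1.03 (edgeR adjusted p 1.07e-12, SE 0.059). Ror1, a receptor of the branch without beta-catenin, was at 2.79 ± 0.548 and 2.93 ± 0.311 CPM (SD, n = 3) and was not called (0.07, SE 0.222). It spans 344 kb, and its estimate was -0.31 with the span offset, also without a call. Ror2 had 8 counts over all libraries and was not tested.

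Secreted inhibitors keep Wnt ligands or co-receptors from signalling: Sfrp proteins bind the ligands, and Dkk proteins of the Dkk1 type bind Lrp5 and Lrp6. Of 8 such genes, 3 were tested and all 3 were called, where 61.7% of all tested genes were. Dkk3, a divergent family member that is not known to bind Lrp6 as Dkk1 does, was at 12.2, 12.6 and 10.3 CPM in controls and 24.7, 24.7 and 18.6 CPM in knockdown libraries. Knockdown replicate 3 was lower than the other two but still above all controls. The log2 fold change was 0.96 (edgeR adjusted p 1.80e-07, SE 0.115). Sfrp4 was at 99.3, 95.6 and 102 CPM in controls and 79.4, 76.7 and 72.2 CPM in knockdown libraries, without overlap, and fell by 0.38 on the log2 scale (SE 0.0556). Dkk4 went from 10.8 ± 0.966 to 13.1 ± 0.105 CPM (SD, n = 3). Its log2 fold change of 0.28 (edgeR adjusted p 0.0312, SE 0.11) lost its call when control replicate 1 (0.23) or 3 (0.26), or any of knockdown replicates 1 (0.29), 2 (0.28) and 3 (0.28), was left out, and was 0.45 with the span offset.

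Inside the cell, Dishevelled proteins carry the signal from Frizzled, and the destruction complex holds beta-catenin down. Of 6 tested genes, 4 rose, 1 fell and Dvl2 was not called. That is 83.3% called, against 61.7% of all tested genes, of which 30.8% were called higher and 30.9% lower. Dvl1 was at 24.4, 23.5 and 23.1 CPM in controls and at 43.1, 49.1 and 45.9 CPM in knockdown libraries. The groups lay well apart, with a log2 fold change of 0.96 (edgeR adjusted p 1.34e-10, SE 0.0737). Dvl1 overlaps Tas1r3 on the other strand in the rat annotation, and use of strand in counting is not given in the sources used here; Tas1r3 had 34 counts over all libraries against 2793 for Dvl1. Dvl3 went from 112 ± 8.03 to 134 ± 8.47 CPM (SD, n = 3; 0.26, SE 0.0592). Dvl2 was at 62.0, 64.3 and 59.2 CPM and at 52.8, 57.2 and 63.0 CPM, with groups that overlap (-0.10, SE 0.0655), although it passed without knockdown replicate 3 (-0.17). The ratio of Dvl1 to Dvl2 counts was 0.365 to 0.394 in controls and 0.729 to 0.859 after knockdown.

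Gsk3b, the kinase that marks beta-catenin for destruction and also acts in insulin signalling, was at 110, 101 and 109 CPM in controls. It was at 193, 197 and 204 CPM in the knockdown libraries. All of these were higher than all controls, with a log2 fold change of 0.89 (edgeR adjusted p 9.60e-13, SE 0.0505), or 0.62 with the span offset. Apc, a scaffold of the complex, rose from 98.9 ± 2.31 to 118 ± 3.98 CPM (SD, n = 3; 0.25, SE 0.0517), or 0.14 with that offset. The other scaffold, Axin1, fell from 49.2 ± 0.614 to 42.5 ± 0.536 CPM (SD, n = 3; -0.21, SE 0.0613). The members of this complex thus did not move in 1 direction.

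In the nucleus, beta-catenin has no DNA-binding domain of its own and relies on Tcf7, Tcf7l1, Tcf7l2 and Lef1. Ctnnb1, the beta-catenin gene, was at 305, 315 and 308 CPM in controls and 334, 323 and 335 CPM in knockdown libraries. The groups did not overlap, but the difference was small, and the log2 fold change of 0.10 (edgeR adjusted p 0.0556, SE 0.043) did not pass. It passed in 6 of 16 alternatives, with library totals in place of the composition correction (0.15), without knockdown replicate 2 (0.11), and at 0.09 to 0.10 with limma-voom, the filter at a mean of 1 CPM and the replicate block with or without the span offset. RNA level says nothing about the protein, whose stability the pathway controls.

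Of the 5 genes of this role, all tested, 3 were called, all higher. That is 60%, close to the 61.7% of all tested genes, of which 30.8% were called higher. The 3 called genes were the Tcf genes. Tcf7l2, which both activates and represses targets, was at 18.0, 19.3 and 18.4 CPM in controls and 29.7, 30.0 and 35.3 CPM in knockdown libraries (0.77, edgeR adjusted p 6.72e-08, SE 0.0866). Tcf7l1, mostly a repressor, was at 6.97, 6.57 and 7.32 CPM and then at 13.4, 13.1 and 12.1 CPM (0.89, edgeR adjusted p 1.04e-06, SE 0.12). Tcf7 was at 1.84, 2.16 and 1.54 CPM, or 24, 28 and 20 counts, and then at 3.18, 4.73 and 3.62 CPM, or 44, 64 and 48 counts (1.05, edgeR adjusted p 0.000479, SE 0.235). No knockdown value of these genes overlapped a control value, as held for 65.6% of all tested genes. With the span offset, Tcf7l2 moved to 0.46 and Tcf7l1 to 0.61, both still called, while Tcf7, a shorter gene, was at 1.03.

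Lef1, itself a classical target of the pathway, did not follow them. It was at 10.0, 8.66 and 8.78 CPM in controls and at 7.02, 8.27 and 7.24 CPM in knockdown libraries, with all knockdown values just below the controls. The log2 fold change was -0.29 (edgeR adjusted p 0.065, SE 0.132), which did not pass. It passed without knockdown replicate 2 (-0.36) and with the span offset (-0.50). The summed level of the 3 Tcf genes over that of Lef1 was 2.67 to 3.24 in controls and 5.78 to 7.05 after knockdown. The rat annotation places 2 long non-coding genes over Tcf7l1 on the other strand, with 96 and 65 counts over all libraries against 794 for Tcf7l1, and neither of them was called.

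**Figure D3:**
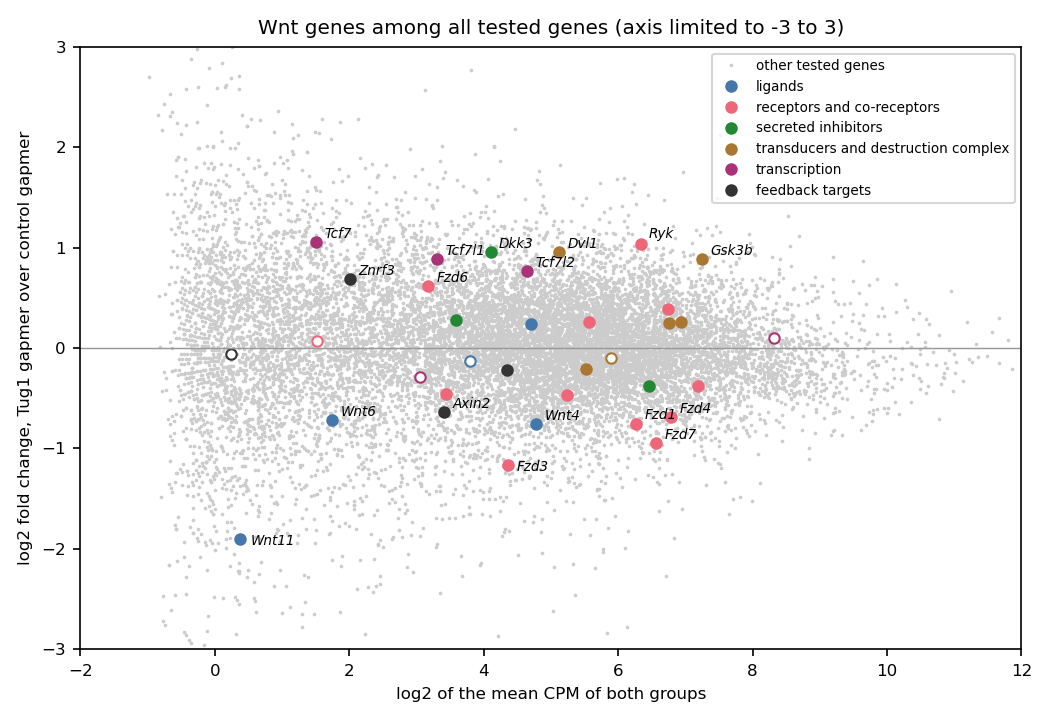
Log2 fold change of knockdown over control against log2 of the mean CPM of both groups, for all tested genes (grey) and the 35 Wnt genes (coloured by role, open where the adjusted p was not under 0.05). The Wnt genes lie on both sides of 0, from -1.90 for Wnt11 to 1.05 for Tcf7, and tested genes beyond -3 or 3 are not drawn.

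Feedback targets are genes that the pathway itself turns on and whose products then limit it, and they are often read as its output. Of 5 such genes, 4 were tested: 2 fell, 1 rose and Rnf43 was not called. The called share was 75%, against 61.7% of all tested genes. Axin2, the most widely used of these readouts, was at 13.3, 14.1 and 11.3 CPM in controls and at 8.54, 9.23 and 7.16 CPM in knockdown libraries. All knockdown libraries were below all control libraries, with a log2 fold change of -0.64 (edgeR adjusted p 0.000157, SE 0.127). It kept this call in all 16 alternatives, from -0.72 to -0.54. Nkd2, which binds Dishevelled, was at 20.5, 21.9 and 23.3 CPM and then at 18.4, 18.0 and 20.0 CPM. The groups nearly touched, and its log2 fold change of -0.22 (edgeR adjusted p 0.0337, SE 0.0884) lost its call without control replicate 2 (-0.22) or 3 (-0.17), or knockdown replicate 1 (-0.20) or 2 (-0.19), and with library totals (-0.17).

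Znrf3 and Rnf43 are related membrane ubiquitin ligases that remove Frizzled and Lrp6 from the surface. Znrf3 was at 2.68, 3.17 and 3.39 CPM in controls and at 4.49, 4.65 and 5.81 CPM in knockdown libraries, or 35, 41 and 44 counts against 62, 63 and 77. The log2 fold change was 0.69 (edgeR adjusted p 0.00325, SE 0.191), the opposite direction to Axin2. It moved to 0.42 with the span offset and was then not called (edgeR adjusted p 0.0544). Rnf43 had 21, 5 and 21 counts in controls and 18, 13 and 16 after knockdown, too few and too uneven to show a difference (-0.06, SE 0.385). Nkd1 had 1, 5 and 6 counts in controls and 7, 6 and 15 after knockdown and was not tested.

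Promoter sequence was at hand for 43 of the 58 genes, as windows from 250 bases before to 50 bases after the annotated start (RefSeq, GRCr8). They were searched on both strands for CTTTGAA and CTTTGAT, the most usual forms of the site that Tcf and Lef factors bind, which do not overlap each other in these windows. A match was present in 6 of the 43 windows (14%), those of Axin2, Dkk1, Fzd7, Nkd1, Tcf7 and Wnt8a, against 8.73% of 33469 rat promoters. GC content, which differed, was 65.3% in the median of the 43 windows and 51.7% over all. Axin2 alone of these 6 had more than 1 match, 232 and 132 bases before the start. The windows of Axin2, Fzd7 and Tcf7 follow because these are the tested genes with a match, and that of Nkd1 as a feedback target with counts in every library; capitals mark the matches. They lie at chr10:94398535-94398834 (plus strand), chr9:68425288-68425587 (plus), chr10:36954230-36954529 (minus) and chr19:34722797-34723096 (minus), all GRCr8. The Axin2 window is set on a start inside the outer limits of the gene. The matches in Fzd7 and Tcf7 cross the start itself.

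Axin2: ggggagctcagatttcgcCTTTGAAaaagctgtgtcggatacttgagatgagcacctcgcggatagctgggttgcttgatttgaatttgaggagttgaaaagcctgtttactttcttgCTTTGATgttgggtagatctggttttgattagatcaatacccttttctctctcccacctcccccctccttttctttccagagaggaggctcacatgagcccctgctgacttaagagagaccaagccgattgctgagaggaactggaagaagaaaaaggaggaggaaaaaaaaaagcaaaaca

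Fzd7: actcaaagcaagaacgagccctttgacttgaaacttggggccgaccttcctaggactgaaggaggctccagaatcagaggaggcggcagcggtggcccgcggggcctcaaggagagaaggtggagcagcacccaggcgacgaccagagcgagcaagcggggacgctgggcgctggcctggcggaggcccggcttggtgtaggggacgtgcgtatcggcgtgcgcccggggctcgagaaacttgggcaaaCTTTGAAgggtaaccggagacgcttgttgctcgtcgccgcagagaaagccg

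Tcf7: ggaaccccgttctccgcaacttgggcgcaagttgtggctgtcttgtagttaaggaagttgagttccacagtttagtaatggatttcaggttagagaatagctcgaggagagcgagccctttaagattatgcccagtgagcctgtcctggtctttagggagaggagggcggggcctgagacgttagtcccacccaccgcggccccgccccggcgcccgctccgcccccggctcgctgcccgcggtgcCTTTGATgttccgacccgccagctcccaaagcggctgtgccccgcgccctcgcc

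Nkd1: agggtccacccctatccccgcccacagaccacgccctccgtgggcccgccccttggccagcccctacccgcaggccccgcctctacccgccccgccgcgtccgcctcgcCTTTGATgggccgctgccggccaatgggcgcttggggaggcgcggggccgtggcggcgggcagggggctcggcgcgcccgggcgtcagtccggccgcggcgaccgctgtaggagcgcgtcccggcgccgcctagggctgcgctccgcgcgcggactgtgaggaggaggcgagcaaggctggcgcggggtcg

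Among the 25 windows of tested genes, 3 had a match (12%, against 8.73% of all rat promoters). Of these 3 genes, Axin2 (-0.64) and Fzd7 (-0.95) fell and Tcf7 rose (1.05). Whether a match bears on the direction of change was not tested. A match is a description of the sequence and does not show binding in these cells.

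The rest of the pathway was read from a list of 116 further genes, of which 93 were tested. At the same threshold 65 were called (69.9%, against 61.7% of all tested genes), 28 higher and 37 lower, and the median log2 fold change was -0.07. The list includes genes that other pathways also control. Porcn, which attaches the lipid to Wnt proteins, and Wls, the carrier that brings them to the cell surface, both fell, while Notum, a secreted enzyme that removes that lipid, was not called (-0.71, SE 0.373). These 3 genes are named after their values were seen. Porcn changed by -0.35 (SE 0.0585). Wls was at 824, 801 and 861 CPM in controls and at 468, 438 and 460 CPM in knockdown libraries (-0.86, edgeR adjusted p 1.61e-13, SE 0.044).

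Of 16 tested genes listed as beta-catenin targets, 13 fell and 2 rose, with a median log2 fold change of -0.61; over all tested genes 30.9% were called lower and the median was 0.00. Ccn4, a matricellular protein also called Wisp1, fell most in that group, from 316, 297 and 318 CPM to 103, 106 and 118 CPM (-1.51, edgeR adjusted p 3.58e-16, SE 0.0534). Ppard, a nuclear receptor of fatty acid metabolism, went the other way, from 22.2, 22.9 and 19.4 CPM to 39.4, 48.6 and 42.4 CPM (1.01, edgeR adjusted p 7.94e-10, SE 0.0867). Many of the 13 respond to growth factor and other signals as well, and their direction is not a measure of beta-catenin activity.

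Of 28 tested genes of kinases, phosphatases and protein degradation, 9 rose and 7 fell, a called share of 57.1% that lies close to the 61.7% of all tested genes. Tnks2, a tankyrase that marks Axin proteins for removal, rose most in the whole list, from 95.4, 88.3 and 96.3 CPM to 253, 267 and 269 CPM (1.49, edgeR adjusted p 2.02e-16, SE 0.0509). Frat2, which binds Gsk3b and restrains it, fell from 11.3, 13.0 and 11.6 CPM to 5.21, 4.95 and 4.98 CPM (-1.24, edgeR adjusted p 2.69e-08, SE 0.132). Among 20 tested nuclear cofactors 8 rose and 7 fell (75% called). They held the furthest drop of the list in Sox9 (-1.65, SE 0.117), a transcription factor that antagonises beta-catenin. Sox9 was at 23.1, 27.7 and 20.7 CPM in controls and 7.16, 7.83 and 7.77 CPM in knockdown libraries, with a clear gap between the groups.

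In the planar polarity branch, which orients cells without beta-catenin, 6 of 15 tested genes rose and 2 fell, a called share of 53.3% against 61.7% of all tested genes. Prickle1, a cytoplasmic core component of this branch, rose from 44.7 ± 2.01 to 87.9 ± 5.15 CPM (SD, n = 3; 0.98, SE 0.0615), while Vangl2, its membrane partner, fell from 3.82 ± 0.66 to 1.57 ± 0.313 CPM (-1.27, SE 0.241). Of 7 tested genes for other receptors, 2 rose and 4 fell (85.7% called, against the same 61.7%). Of 4 tested extracellular modulators, 1 rose and 2 fell (75% called, against 61.7%). The rise was in Frzb, a scarce Sfrp-type inhibitor with 1.00 ± 0.336 CPM in controls and 2.11 ± 0.268 CPM in knockdown libraries (SD, n = 3; 1.07, SE 0.302).

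**Figure D4:**
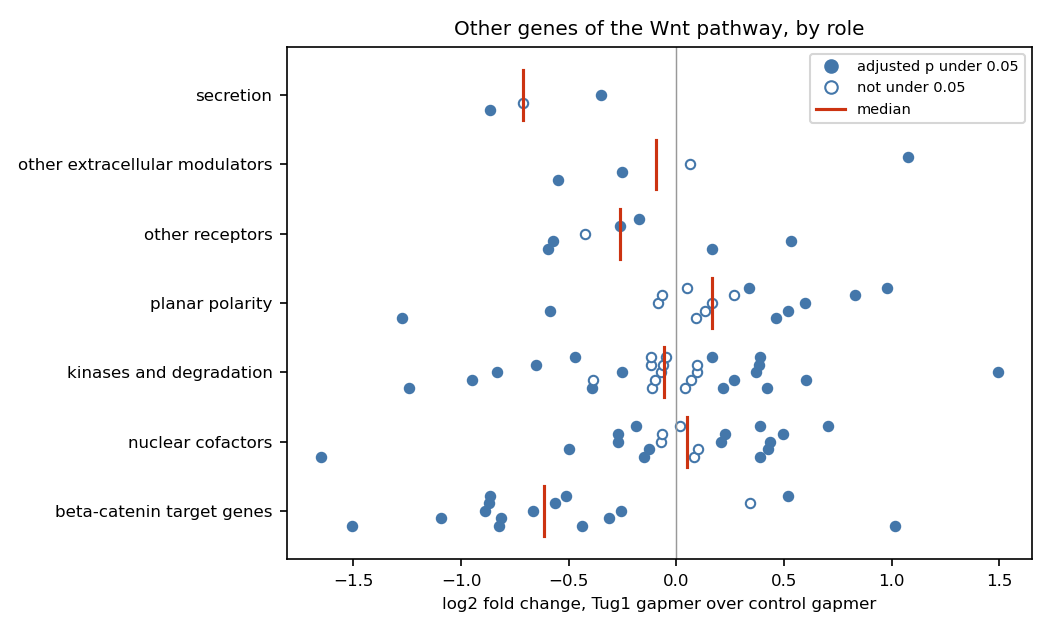
Log2 fold change of the 93 tested further pathway genes, 1 point per gene in rows by role, filled where the adjusted p was under 0.05, with the median of each row as a red bar. The beta-catenin target row has 13 of 16 points filled and left of 0, and the kinase and cofactor rows straddle 0.

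Genomic span moved with the direction of change. The 15 Wnt genes called higher had a median span of 43.0 kb and the 14 called lower one of 20.6 kb, against 37.6 and 16.0 kb over all tested genes. Across the 35 Wnt genes Spearman's rho of log2 fold change on span was 0.37, and across 13084 tested genes with a span it was 0.27; genes are not independent replicates, and the points share the same 6 libraries. Fzd7 and Fzd2, which fell, span 2.82 and 1.91 kb, and Gsk3b, Tcf7l1 and Tcf7l2, which rose, span 150, 165 and 193 kb. Fzd3, which fell as well, spans 67.1 kb. The rat annotation places 19 other genes over 14 of the 35 Wnt genes, and those present in the table had at most 96 counts over all libraries. An offset that removes the span trend from each library left 29 of 35 genes called (background 62.1%), 28 of them among the 29 above.

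**Figure D5:**
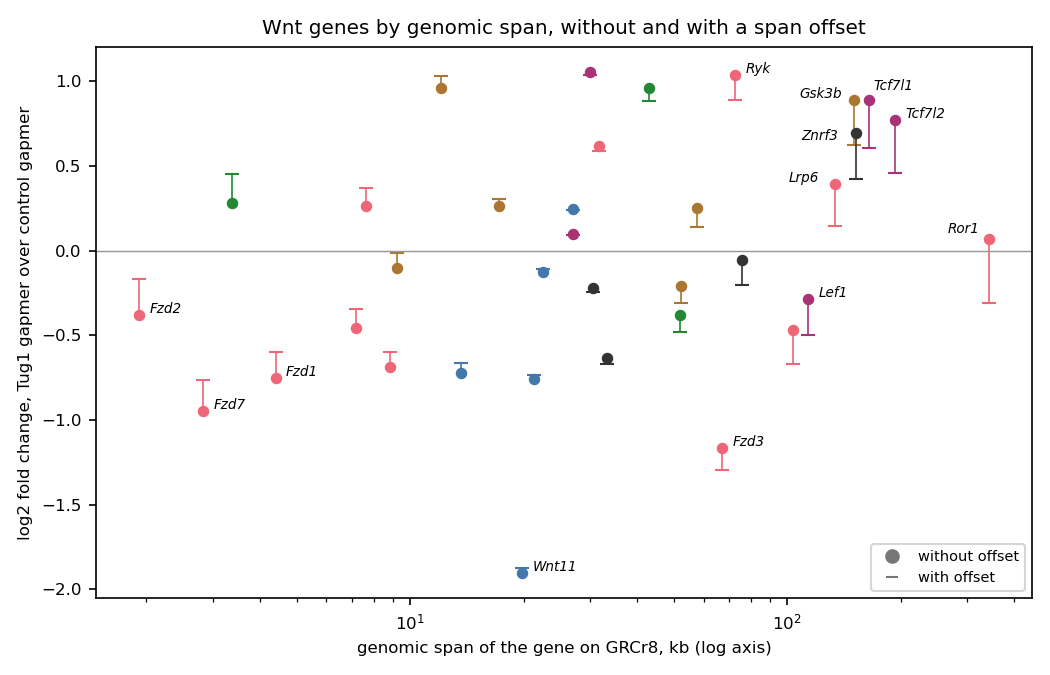
Log2 fold change of the 35 tested Wnt genes against their genomic span in kb (log axis), as dots without and as dashes with an offset for span, colours by role as in the plot of values by library. Short genes such as Fzd2 and Fzd7 move up and long genes such as Gsk3b, Tcf7l2 and Ror1 move down, and Ror1, not called either way, crosses 0.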

How the data were processed

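Raw counts by gene symbol for 6 libraries were deposited by the authors; the values are whole numbers in 1 column per library. FastQC 0.11.7, fastp 0.14.1 and STAR 2.5 are named in the submitters' processing notes; the counting tool, genome build, annotation, strand setting and treatment of reads matching several genes are not given in the sources used here. Libraries were poly-A selected and stranded, per the labels' protocols. Groups and replicate numbers came from the sample titles, and replicates within a group differed by more than counting noise (chi-square per degree of freedom 2.37 to 4.10).

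Counts were fitted in R 4.3.3 with edgeR 4.0.16: expression filter with minimum count 10 and total 15, TMM scaling (factors 0.979 to 1.02), quasi-likelihood test of 3 against 3 libraries, two-sided, without a block, Benjamini-Hochberg adjustment over 14216 genes. Log2 fold changes are knockdown over control, and the SE is the fold change over the root of F. CPM is on the TMM scale. CPM is not corrected for transcript length, so ratios between genes were compared only between libraries, and the gene with most CPM in a role served only to choose which values to print. The fit was also run on simulated counts with 200 changed genes, drawn with the dispersions of the fit itself. Far more genes were called in these data, so that run does not show how the fit behaves here. The members, the further pathway list, the marker lists and the alternatives were chosen with earlier results of these data known. Values per library are given for genes called with a log2 change of 0.5 or more in either direction, the gene with most CPM in each role and the feedback targets, and for some others chosen after their values were seen; of the further list, the 4 highest and 4 lowest called genes are named. Gene spans came from RefSeq's GRCr8 table and covered 13084 tested genes (92%) and all 35 tested Wnt genes; no deposited coordinates were used. Alternatives were DESeq2 size factors, library totals, DESeq2 1.42.0, limma-voom (limma 3.58.1), 2 other filters, an adjusted p under 0.01, the replicate block, each library left out, and a genomic span offset (lowess span 0.3).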

Additional observations from a re-analysis of the deposited data

How the results depend on the processing

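The number of Wnt genes called changed was 29 and ran from 26 to 30 over 16 alternatives, with 13 to 16 higher and 12 to 15 lower. When 1 of the 6 libraries was dropped it ran from 26 to 29. The count over all genes ran from 7353 to 8987, that of the further pathway list from 57 to 71, and Tug1 from -2.22 to -2.07. None of these counts moved by more than 1.5 times. DESeq2's Wald test and the adjusted p under 0.01 called 26 of 35 Wnt genes each (74.3%), without Nkd2, Wnt9a and Dkk4. Over all tested genes these settings called 55.4% and 51.7%. The number of Wnt genes tested was not the same throughout. With a filter of only 1 count it was 51, of which 29 were called (56.9%, against 34.5% of all). With a library dropped it was 35 or 36, with 74.3% to 80.6% called, against 56% to 58.1% of all. With library totals, 55.7% of all called genes were higher rather than 50%, and the median over all tested genes shifted to 0.06 on the log2 scale.

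Of the 35 genes, 25 kept direction and call in all 16 alternatives and the other 10 changed in some. Among 560 pairs of a gene and an alternative, 23 lost a call, 10 gained one and 8 changed sign. The changes of sign were in genes without a call: Rnf43 was at 0.17 with limma-voom and ran from -0.48 to 0.21 in the fits without a library, and Ror1 from -0.089 to 0.17 in those fits, was at -0.31 with the span offset and at -0.31 when that offset was combined with the replicate block. The cause was not tested.

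For libraries with the same number, the correlation of deviations from group means was -0.00531, 0.0298 and 0.027 for numbers 1 to 3. Of 6 libraries, 4 correlated best with their own number. Such small correlations cannot decide whether equal numbers mark pairs, and the main fit had no block. With the number as a replicate block 30 Wnt genes (85.7%) and 8848 of all genes (62.2%) were called. Ctnnb1 (0.10) was the gene gained. Depth is the limit for the scarcest genes: 1 CPM stood for 12.9 to 13.8 counts.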
